A study of Mus musculus with 12 samples.

Results

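The 7 genes described here are grouped as surface and adhesion genes of immature Schwann cells (SCs): Ngfr, Ncam1, L1cam, Chl1, Cdh2, Cdh19 and Gap43. They were found by the Ensembl identifiers that carry these symbols and were 7 of the 25700 genes counted. Schwann cells are the glia of peripheral nerves. Precursors from the neural crest become immature SCs that hold bundles of axons, and each immature SC later either wraps 1 large axon in myelin or keeps several small axons in a Remak bundle. Ngfr is the low-affinity neurotrophin receptor p75. Ncam1, L1cam and Chl1 are immunoglobulin cell adhesion molecules, Cdh2 (N-cadherin) and Cdh19 are calcium-dependent adhesion molecules, and Gap43 is a membrane phosphoprotein of growing nerve endings. In textbook accounts p75, NCAM and L1 are carried by immature and non-myelinating SCs and are lowered when a cell myelinates, whereas N-cadherin and Cdh19 are linked to SC precursors and early glia.

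The SCs were isolated from the sciatic nerve at postnatal day 5 (P5), an age at which myelination is under way. Every mouse was P0Cre-/+ : ReYFP Tg/+ : βAct-DsRed Tg/+ on a C57bl/6J background, so all groups carried the same 3 alleles and no group lacked one. The P0Cre transgene, which is active in the SC lineage, switched on eYFP from a Rosa26 reporter by removing a stop cassette, which limits the sorted cells to those that had recombined and their progeny. Cells positive for eYFP were sorted by side scatter into an mSC gate (the cloud with high side scatter, enriched in myelinating cells), an nmSC gate (low side scatter, enriched in not-myelinating cells) and an allSC gate that spans both clouds. Each gate had 4 libraries. The labels give every library a subject number, from 1 to 4 in each gate, which is read here as the number of the mouse. Both sexes were used, but the labels do not tell which mouse was of which sex, and sex was not analysed.

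RNA was amplified by Smart-Seq2, which copies polyadenylated transcripts over their full length, and reads were counted per gene without molecular identifiers. The 12 libraries held between 8180927 and 16918122 counted reads, so that 3 reads, the floor used here, were worth between 0.177 and 0.367 CPM (counts per 1000000 counted reads, before normalization), a limit that covers counting error only. All other CPM values were normalized by the TMM method of edgeR. The myelin gene Mbp, which codes for myelin basic protein, had a mean CPM ± SD over the 4 libraries of 51943 ± 3470 in mSC and of 5647 ± 554 in nmSC. The SC lineage factor Sox10 averaged 267 CPM in mSC, 267 CPM in allSC and 266 CPM in nmSC. Cycling cells were unequal between the gates, with 5 proliferation genes summing to between 65.5 and 111 CPM in mSC and between 841 and 1116 CPM in nmSC. The 7 fibroblast markers summed to between 891 and 2250 CPM in mSC and between 9392 and 14252 CPM in nmSC, where Col1a1 and Col3a1 alone were called higher, while the defining fibroblast marker Pdgfra was at 2.34 CPM in mSC and 2.35 CPM in nmSC. The 12 neuronal markers summed to between 37.6 and 50.4 CPM in mSC and between 32.9 and 36.7 CPM in nmSC. What part these differences between the gates have in the values below was not tested.

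All 7 genes passed the filter on low counts, and 18597 genes were tested in all. From mSC to nmSC, 6 of the 7 were higher in nmSC past the threshold (adjusted p under 0.05 by the quasi-likelihood test of edgeR, with p-values adjusted by Benjamini-Hochberg over all tested genes) and none was lower. Of all tested genes, 40.5% were called, 20.1% higher in nmSC and 20.4% lower. Without the mSC library of mouse 4, which held the least of most of these genes, the count of genes called stayed at 6. It fell to 5, with the loss of Cdh19, without the mSC library of mouse 2 or 3 or the nmSC library of mouse 4, and with the mouse number as a replicate block. The 7 genes did not form 1 block. L1cam, Ncam1, Chl1, Ngfr and Cdh2 were between 5.26-fold and 18.3-fold higher in nmSC, Cdh19 was 1.31-fold higher, and Gap43 lay near the detection floor in every gate with no detectable difference. The first 5 had log2 fold changes of at least 2, as had 3.84% of all tested genes together with a call. Because these are bulk samples, more cells that carry a transcript and more transcript in each cell cannot be told apart.

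**Figure D1:**
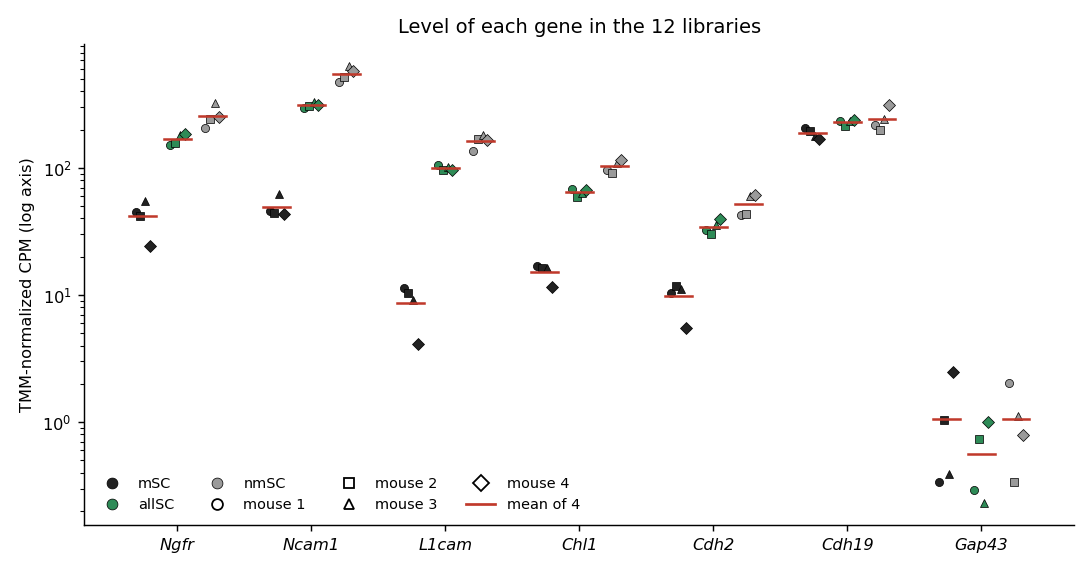
Level of the 7 genes in each of the 12 libraries, as TMM-normalized CPM on a log axis, with 1 point per library shaped by mouse, coloured by gate, and red bars for the mean of the 4 libraries of a gate. Ngfr, Ncam1, L1cam, Chl1 and Cdh2 rise from mSC through allSC to nmSC with no overlap between the gates, Cdh19 lies between 167 and 314 CPM in all 12 libraries, and Gap43 stays at or under 2.49 CPM.

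The neurotrophin receptor Ngfr (chromosome 11, 95568818 to 95587735, minus strand, GRCm38) binds all neurotrophins and their precursors. In the mSC gate it was at 45.2, 42.0, 55.2 and 24.2 CPM in mice 1 to 4. In the allSC gate its level was 152, 156, 180 and 183 CPM, and in the nmSC gate 207, 242, 322 and 250 CPM. The 3 gates did not overlap, and the mSC library of mouse 4 was well under the other 3 of its gate. Its log2 fold change from mSC to nmSC was 2.61 (standard error 0.20, 95% interval from 2.19 to 3.03, adjusted p = 2.89e-09, quasi-likelihood test of edgeR). Every mouse showed the direction, with nmSC over mSC ratios of 4.59, 5.77, 5.84 and 10.3 in mice 1 to 4. Without the mSC library of mouse 4 the log2 fold change was 2.43, and the call held.

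Ncam1 (chromosome 9, 49502136 to 49798925, minus strand, GRCm38) codes for NCAM, which binds itself on neighbouring cells and carries polysialic acid in immature tissue. Its mSC level was 45.5, 43.9, 62.3 and 43.5 CPM in mice 1 to 4. The allSC level was 295, 308, 327 and 314 CPM, and the nmSC level 474, 518, 634 and 579 CPM. The lowest nmSC library was thus far above the highest mSC library, and the 4 mice were close to each other in their ratio of nmSC over mSC, at 10.4, 11.8, 10.2 and 13.3. The log2 fold change was 3.50 (standard error 0.15, 95% interval from 3.19 to 3.80, adjusted p = 1.30e-12, quasi-likelihood test of edgeR). The 7 annotated transcripts of Ncam1, which give NCAM its short and long forms, were counted together and cannot be told apart. An antisense gene, Gm11149, shares 417 exon bases with Ncam1, and the use of strand in counting is not given in the sources used here.

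L1cam (chromosome X, 73853778 to 73896105, minus strand, GRCm38) codes for L1, which SCs use in contact with axons. It was at 11.3, 10.3, 9.08 and 4.11 CPM in the mSC libraries of mice 1 to 4. Its level was 106, 95.5, 101 and 96.0 CPM in allSC and 135, 170, 180 and 165 CPM in nmSC. L1cam had the largest difference of the 7 genes and ranked 19 of 18597 tested genes by log2 fold change. That log2 fold change was 4.20 (standard error 0.21, 95% interval from 3.75 to 4.65, adjusted p = 1.27e-11, quasi-likelihood test of edgeR). A log2 fold change of at least 4 with a call was found for 27 genes, or 0.145% of those tested. Ratios of nmSC over mSC varied more between mice than for Ncam1, from 12.003 in mouse 1 through 16.4 and 19.8 in mice 2 and 3 to 40.2 in mouse 4, whose mSC library held the least L1cam. Without that mSC library the log2 fold change was 3.99. L1cam shares 100 exon bases with its neighbour Arhgap4 on the same strand, which had between 206 and 440 counts per library.

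The RefSeq promoter table (GRCm38.p6) matched Ngfr, L1cam and Chl1. The upstream bases of Ngfr and L1cam that lie outside annotated exons are shown for the base composition described after them. Capitals mark CG dinucleotides, and both are read 5′ to 3′ on the minus strand. The Ngfr run lies at chr11:95587736-95587948 (213 bases, 14 CG), and the L1cam run at chrX:73880835-73881084 (250 bases, 12 CG), which is inside an intron of a longer annotated L1cam transcript.
Ngfr: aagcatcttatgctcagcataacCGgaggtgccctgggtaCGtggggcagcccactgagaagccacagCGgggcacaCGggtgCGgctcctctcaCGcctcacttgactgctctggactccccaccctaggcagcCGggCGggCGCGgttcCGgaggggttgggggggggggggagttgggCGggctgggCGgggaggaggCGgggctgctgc
L1cam: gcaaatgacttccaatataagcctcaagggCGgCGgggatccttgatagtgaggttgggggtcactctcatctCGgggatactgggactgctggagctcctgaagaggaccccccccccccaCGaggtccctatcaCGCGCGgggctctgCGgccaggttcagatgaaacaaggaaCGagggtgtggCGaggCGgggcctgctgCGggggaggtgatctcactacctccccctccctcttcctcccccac
Over the 250 bases before the start, the Ngfr promoter was 70.4% G and C, more than in 91.2% of the 32851 promoters of the table, whose median was 52.4%. For L1cam the value was 63.2% at this start and 69.6% at the other of its starts in the table, whose window overlaps the run shown. Of 7 motif families searched on both strands, neither window held one, as was true of 50.1% of all promoters. These were AP-1 (TGANTCA), SOX (ACAAAG or ACAATG), EGR (GCGNGGGCG), the POU octamer (ATGCAAAT), TEAD (GGAATG), E2F (TTTCCCGC) and the TATA box (TATAAA). Chl1 held 1 SOX match, 145 bases before its start in the table, and 25.2% of all promoters held such a match. All 250 bases of this Chl1 window (chr6:103510626-103510875) lie in annotated exons. The window is inside the annotated gene, which begins at 103510586, so the match is not upstream of the gene. A match or its absence describes these windows only.

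Chl1 (chromosome 6, 103510586 to 103750211, plus strand, GRCm38), the close homologue of L1, was at 17.03, 16.1, 16.2 and 11.6 CPM in the mSC libraries of mice 1 to 4. It reached 68.7, 59.4, 62.9 and 66.7 CPM in allSC and 95.6, 91.3, 108 and 115 CPM in nmSC. The gates again did not overlap. From mSC to nmSC its log2 fold change was 2.74 (standard error 0.15, 95% interval from 2.44 to 3.05, adjusted p = 2.11e-11, quasi-likelihood test of edgeR). Ratios of nmSC over mSC ran from 5.62 in mouse 1 to 9.92 in mouse 4, and the call held without the mSC library of mouse 4 at a log2 fold change of 2.64.

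Of the cadherins, Cdh2 rose strongly and Cdh19 hardly. Cdh2 (chromosome 18, 16588877 to 16809246, minus strand, GRCm38) was at 10.4, 11.8, 11.2 and 5.48 CPM in mSC, at 32.6, 30.3, 35.2 and 39.5 CPM in allSC, and at 42.4, 43.1, 60.2 and 61.2 CPM in nmSC. The log2 fold change from mSC to nmSC was 2.40 (standard error 0.20, 95% interval from 1.97 to 2.82, adjusted p = 1.28e-08, quasi-likelihood test of edgeR). Mice 1 and 2, with ratios of 4.06 and 3.65, were under mice 3 and 4, with ratios of 5.39 and 11.2. Without the mSC library of mouse 4 the log2 fold change of Cdh2 was 2.22.

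Cdh19 (chromosome 1, 110888326 to 110977584, minus strand, GRCm38) was at 205, 193, 179 and 167 CPM in mSC and at 218, 197, 244 and 314 CPM in nmSC. These ranges overlapped, since mice 1 and 2 had nearly the same level in both gates, with ratios of 1.06 and 1.02, while mice 3 and 4 had ratios of 1.36 and 1.88. The allSC libraries, at 233, 215, 235 and 239.6 CPM, were all above the mSC libraries. The log2 fold change from mSC to nmSC was 0.38 (standard error 0.14, 95% interval from 0.10 to 0.67, adjusted p = 0.0303, quasi-likelihood test of edgeR). This call did not hold when the mouse number entered the fit as a replicate block (log2 fold change 0.37, adjusted p = 0.0515), nor without the nmSC library of mouse 4 (0.24, adjusted p = 0.131). The Cdh19 call thus depended on the fit.

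Gap43 (chromosome 16, 42248442 to 42340651, minus strand, GRCm38) had between 3 and 21 counts per library. Its level was 0.339, 1.04, 0.388 and 2.49 CPM in mSC, 0.291, 0.736, 0.231 and 1.01 CPM in allSC, and 2.02, 0.340, 1.12 and 0.790 CPM in nmSC. The gates overlapped fully. The log2 fold change from mSC to nmSC was 0.077 with a 95% interval from -1.26 to 1.41 (adjusted p = 0.931, quasi-likelihood test of edgeR), so that a difference of either sign was not detectable at this depth. Although Gap43 is listed among genes of immature SCs, few of its reads were found in any gate.

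Every nmSC library was above every mSC library for 5 of the 7 genes, against 17.4% of all tested genes. These 5 were Ngfr, Ncam1, L1cam, Chl1 and Cdh2, and for the same 5 the gates were ordered mSC, allSC and nmSC with no overlap at either step, against 3.93% of all tested genes. The median log2 fold change of the 7 genes from mSC to nmSC was 2.61, and that of all tested genes was 0.16.

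The allSC gate spans both clouds, and its comparisons share libraries with the one above, so that the values are given side by side and not as further evidence. From mSC to allSC, 5 of the 7 genes were called higher and none lower (8.8% of all tested genes were higher). The log2 fold changes were 2.00 for Ngfr, 2.67 for Ncam1, 3.49 for L1cam, 2.07 for Chl1 and 1.80 for Cdh2, with adjusted p between 1.99e-10 and 2.23e-06 in the quasi-likelihood test of edgeR. Cdh19 had a log2 fold change of 0.31 (adjusted p = 0.127 in the quasi-likelihood test of edgeR) although every allSC library exceeded every mSC library, as for 6 of the 7 genes and 11.6% of all tested genes. Gap43 had a log2 fold change of -0.84 (adjusted p = 0.417 by the same test).

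From allSC to nmSC, 4 of the 7 genes were called higher and none lower, against 2.82% of all tested genes called higher and 7.55% called lower. Ncam1 had the firmest of these differences, with a log2 fold change of 0.83 (adjusted p = 0.000259, quasi-likelihood test of edgeR), and Chl1 followed with 0.67 (adjusted p = 0.0022). L1cam had a log2 fold change of 0.71 (adjusted p = 0.0165), and its call was lost in 4 of the 12 fits that each left out 1 library. Ngfr had a log2 fold change of 0.61 (adjusted p = 0.0426), and its call was lost in 8 of those 12 fits. Cdh2, at 0.59 (adjusted p = 0.0509), just missed the threshold although every nmSC library exceeded every allSC library for it, as for 5 of the 7 genes and 7.36% of all tested genes. Cdh19 had a log2 fold change of 0.077 (adjusted p = 0.824) and Gap43 of 0.92 (adjusted p = 0.491), all in the quasi-likelihood test of edgeR.

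**Figure D2:**
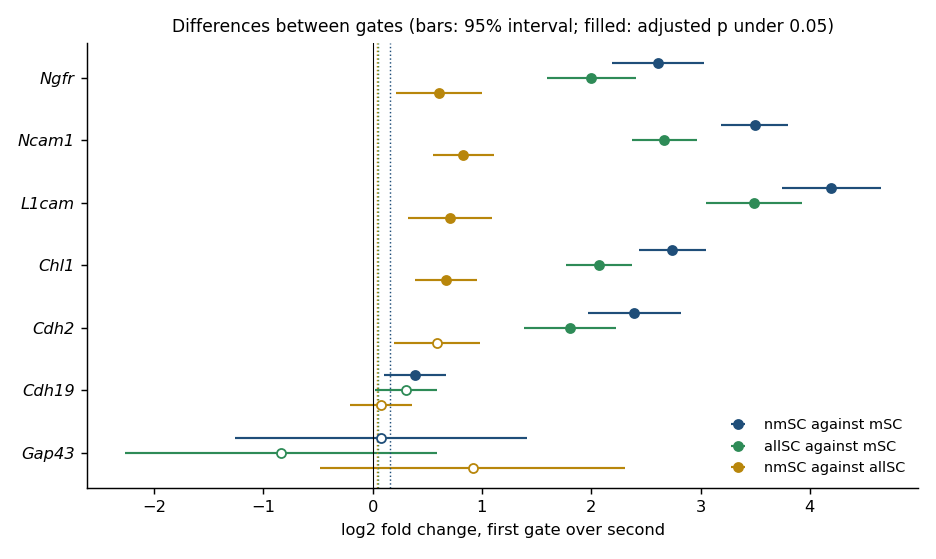
Log2 fold change of each gene between gates, with bars for the 95% interval and filled points for an adjusted p under 0.05; dotted lines mark the median of all tested genes in each comparison. The 5 genes from Ngfr to Cdh2 lie between 2.40 and 4.20 for nmSC against mSC, Cdh19 lies at 0.38, and the wide intervals of Gap43 span 0.

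Because allSC held both clouds, the level of a gene in it was placed on a scale from 0 (the mSC level) to 100 (the nmSC level). Cdh19 and Gap43 were left out, since the levels of their gates overlapped. The other 5 genes lay at 58.9% for Ngfr, 52.1% for Ncam1, 59.1% for L1cam, 56.3% for Chl1 and 58.7% for Cdh2. Within single mice the position ran from 46.3% (Ncam1) to 76.3% (L1cam). The SD between mice was from 5.29 percentage points for Ncam1 to 10.9 for L1cam (n = 4). Ncam1 lay under Ngfr, Chl1 and Cdh2 in all 4 mice, and the order of every other pair differed between mice. With scaling by library size alone all 5 positions fell, to 49.4% for Ngfr, 43.9% for Ncam1, 49.5% for L1cam, 47.3% for Chl1 and 49.3% for Cdh2.

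**Figure D3:**
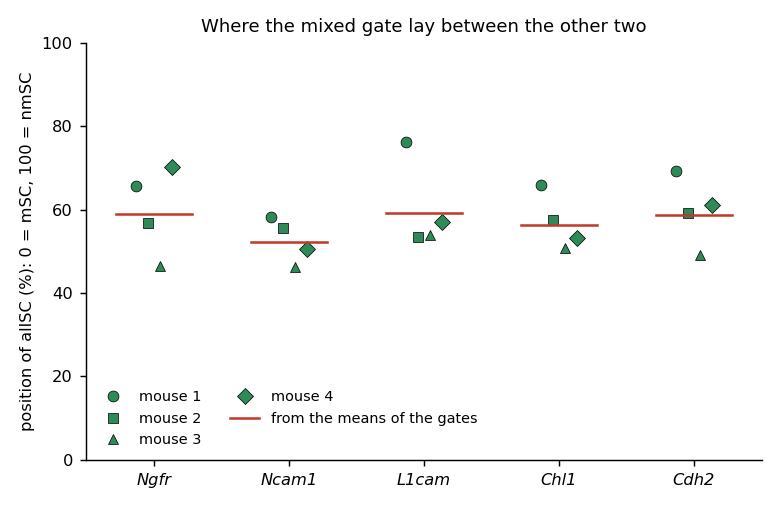
Position of the allSC level between the mSC level (0) and the nmSC level (100), in percent, with 1 point per mouse and a red bar for the value from the means of the gates. All 5 bars lie between 52.1% and 59.1%, and the points of single mice between 46.3% and 76.3%.

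Levels of different genes were compared only per length, as RPKM (CPM divided by the length of the union of exons in kilobases). In nmSC the mean RPKM was 74.2 for Ngfr, 63.6 for Ncam1 and 56.8 for Cdh19, whose libraries overlapped. L1cam followed at 22.1 RPKM, then Chl1 at 8.34 and Cdh2 at 6.42, which overlapped each other, and Gap43 at 0.700. In mSC the order was another one. Cdh19 was first at 43.5 RPKM and stood clear of the rest, Ngfr (12.1) and Ncam1 (5.63) overlapped, and Chl1 (1.24), Cdh2 (1.21), L1cam (1.18) and Gap43 (0.700) could not be ordered beyond their spread. In allSC, Cdh19 (53.9) and Ngfr (48.6) overlapped, and Ncam1 (35.9) and L1cam (13.6) followed. By this length the mSC gate was led by Cdh19 alone, and the nmSC gate by 3 genes with overlapping levels. The order in every gate rests on the length used. With the mean transcript length Ncam1 came first in nmSC at 177 RPKM, before Cdh19 at 103, L1cam at 97.9 and Ngfr at 74.2, and first in allSC at 99.5 RPKM, where L1cam (60.0) also passed Ngfr (48.6). In mSC Ncam1 (15.6) then passed Ngfr (12.1).

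A ratio of 2 genes counted in the same library does not depend on how libraries are scaled. Of the 21 pairs of the 7 genes, 15 had ratios that differed between mSC and nmSC libraries (two-sided exact permutation test, adjusted p = 0.04 over the 21 pairs for each, from p = 0.0286, the smallest that 4 libraries against 4 allow). The pairs share their genes and are not separate results. The test did not pair libraries by mouse, and the share for pairs of other genes was not computed. L1cam rose against every other gene. Its log2 ratio was higher in nmSC by 0.80 against Ncam1, by 1.55 against Chl1, by 1.65 against Ngfr, by 1.86 against Cdh2 and by 3.94 against Cdh19. Ngfr and Cdh19 were read at nearly the same count in nmSC, with a mean log2 ratio of 0.075 ± 0.34 (SD, n = 4), but Ngfr was well under Cdh19 in mSC, at -2.22 ± 0.44 (SD, n = 4). Ngfr, Chl1 and Cdh2 moved by amounts that could not be told apart. The log2 ratio of Ngfr over Chl1 changed by -0.097 (exact permutation p = 0.657, adjusted 0.69), that of Ngfr over Cdh2 by 0.22 (adjusted 0.221) and that of Chl1 over Cdh2 by 0.31 (adjusted 0.133). The remaining 3 pairs without a call each involved Gap43, whose few reads spread the ratios widely.

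**Figure D4:**
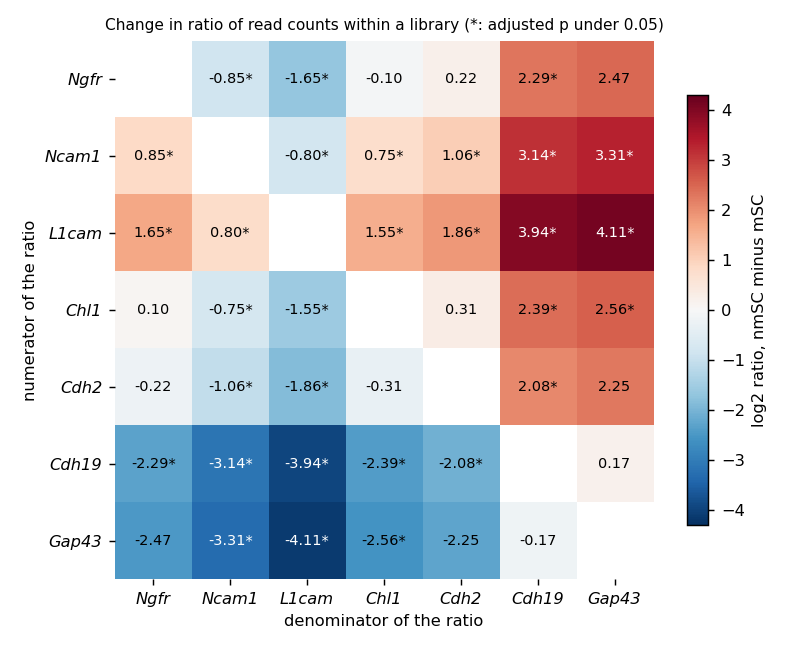
Change from mSC to nmSC in the log2 ratio of read counts within a library, for each pair of genes, with the numerator in rows and the denominator in columns; asterisks mark an adjusted p under 0.05. The L1cam row is positive throughout, from 0.80 against Ncam1 to 4.11 against Gap43, and the cells that join Ngfr, Chl1 and Cdh2 carry no asterisk.

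Set against Sox10 in the same library, Ngfr rose by 2.58, Ncam1 by 3.43, L1cam by 4.23, Chl1 by 2.68 and Cdh2 by 2.37 on the log2 scale from mSC to nmSC (two-sided exact permutation test, adjusted p = 0.04 over the 7 ratios for each). Cdh19 over Sox10 changed by 0.29 (exact permutation, adjusted p = 0.667) and Gap43 over Sox10 by 0.11 (adjusted p = 0.914). The share of other genes whose ratio to Sox10 differed in this way was not computed. Sox10 itself averaged 267 CPM in mSC and 266 CPM in nmSC, so these ratios largely restate the fold changes above. Within gates Sox10 varied, from 124 to 337 CPM in mSC.

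Genes with the most similar profile over the 12 libraries were sought by the root mean square difference (RMSD) of centred log2(CPM + 1) values, among genes with a mean of at least 10 CPM. Ngfr was nearest to Col16a1 (0.076), a collagen that was at 24.97 CPM in mSC and 158 CPM in nmSC, and to Il17rc (0.13). Ncam1 was nearest to the receptor phosphatase Ptprz1 (RMSD 0.11) and to Postn (0.13), which codes for the matrix protein periostin and was at 135 CPM in mSC and 1419 CPM in nmSC. L1cam had no neighbour as close, with S1pr3, a sphingosine-1-phosphate receptor, at an RMSD of 0.20 and Wnt6 at 0.28. Chl1 was nearest to Suclg2 (0.16) and Dock11 (0.17), and Cdh2 to Adamts17 (0.12) and Lhfpl2 (0.15). Cdh19 was nearest to Sp3 (0.083) and Pros1 (0.098), which were likewise only slightly higher in nmSC, with Pros1 at 109 CPM in mSC and 142 CPM in nmSC. The nearest genes of Gap43, Pdap1 (0.23) and Rpl10a (0.24), describe few reads. None of these neighbours was itself 1 of the 7 genes, because members were left out of the search.

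Around these genes, lists of partners, enzymes and relatives were followed from mSC to nmSC. Among 19 partners of p75 and neurotrophins, 14 were tested, 5 were higher in nmSC and 2 lower, with a median log2 fold change of 0.17 beside 0.16 for all tested genes, of which 40.5% were called. The sortilin-family receptor Sorcs2, which binds p75, was at 7.26 CPM in mSC and 82.1 CPM in nmSC (log2 fold change 3.48), and the neurotrophin receptors Ntrk3 and Ntrk2 had log2 fold changes of 3.02 and 2.09. Sorcs1, another receptor of that family, went the other way, from 310 CPM in mSC to 125 CPM in nmSC (-1.31), as did Maged1 (-0.64), a cytoplasmic p75 interactor.

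Of 18 further immunoglobulin adhesion genes, all tested, 7 were higher in nmSC and 5 lower (20.1% and 20.4% of all tested genes), with a median log2 fold change of 0.56. Alcam (8.30 CPM in mSC, 63.8 CPM in nmSC), Cadm1 (37.6 and 250 CPM) and Mcam (215 and 885 CPM) were higher in nmSC. Nfasc, a close relative of L1cam that codes for the neurofascins of paranodes and nodes, was at 289 CPM in mSC and 25.1 CPM in nmSC (log2 fold change -3.53). Cadm3 (-3.45) and Cadm2 (-2.21) were also lower in nmSC. L1cam and Nfasc, of the same family, thus differed between the gates in opposite directions.

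The carbohydrates that these proteins carry are made by other enzymes. Of 5 such genes, 3 were higher in nmSC and none lower (20.1% and 20.4% of all tested genes). The median log2 fold change was 0.64. Over fits that each left out 1 mSC or nmSC library, the number higher ran from 1 to 3 and the number lower from 0 to 1. St8sia4, which makes polysialic acid, was at 4.00 CPM in mSC and 6.25 CPM in nmSC (log2 fold change 0.64, adjusted p = 0.0459, quasi-likelihood test of edgeR). The other polysialyltransferase, St8sia2, named after its values were seen since it was below the level set for naming, was at 0.780 CPM in mSC and 7.53 CPM in nmSC (log2 fold change 3.20, with an adjusted p = 4.73e-08 in that test). B3gat1, an enzyme of the HNK-1 epitope named for the same reason, was at 1.17 CPM in mSC and 2.47 CPM in nmSC (1.09, adjusted p = 0.023).

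Among 8 ankyrins and linkers that bind the tails of L1 proteins, 4 were higher in nmSC and 2 lower (20.1% and 20.4% of all tested genes), with a median log2 fold change of 0.63. Ank3 (log2 fold change 0.88), Ezr (0.75) and Numb (0.60) were higher, and Ank2 (-1.45) and Msn (-0.84) lower. Of 17 other cadherins, 15 were tested, 6 were higher in nmSC and 3 lower, again beside 20.1% and 20.4% (median 0.80). The type II cadherins Cdh10 (4.65 CPM in mSC, 36.1 CPM in nmSC), Cdh20 (2.02 and 13.2 CPM) and Cdh11 (77.8 and 264 CPM) were higher. Cdh1 (E-cadherin, found in the autotypic junctions of myelinating SCs) was at 339 CPM in mSC and 132 CPM in nmSC (log2 fold change -1.35), and Cdh3 (P-cadherin) at 18.9 and 0.980 CPM (-4.26). Cdh2 and Cdh1, the neural and epithelial cadherins, therefore ran in opposite directions.

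Of 8 catenins and related linkers, which join cadherins to actin, 3 were higher and 2 lower in nmSC with a median of -0.031, where 40.5% of all tested genes were called. Vcl, the vinculin gene, had a log2 fold change of 1.14, Jup of -0.79 and Ctnna3 of -0.55. A list of 11 genes was set up around Gap43 and growth-associated genes. Of these, 9 were tested, 1 was higher and 3 lower (median -0.065), beside 20.1% and 20.4% of all tested genes. The higher 1 was Marcks, another protein kinase C substrate at the membrane. It was at 270 CPM in mSC and 600.1 CPM in nmSC (log2 fold change 1.15). The lower ones included Dpysl2 (-1.72) and Cap1 (-1.08), neither of which is a relative of Gap43 itself. Of 6 sheddases, proteases or relatives that release adhesion molecules from the surface, none was higher and 3 were lower (median -0.48), where 20.4% of all tested genes were lower. The 3 were Adam10 at 1107 CPM in mSC and 422 CPM in nmSC (-1.39), Adam9 (-1.10) and Adam22 (-0.81), the last of which lacks protease activity.

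Of 13 regulators of the immature SC state, 12 were tested, 11 were higher in nmSC and none lower (median log2 fold change 1.24), where 20.1% of all tested genes were higher. Among its genes at a mean of at least 5 CPM, the largest differences were in Ednrb, the endothelin receptor B, at 299 CPM in mSC and 2037 CPM in nmSC (2.77), in the Notch target Hes1 (2.27) and in Egr1 (1.94), an immediate early gene. No set test was run on any of these lists.

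**Figure D5:**
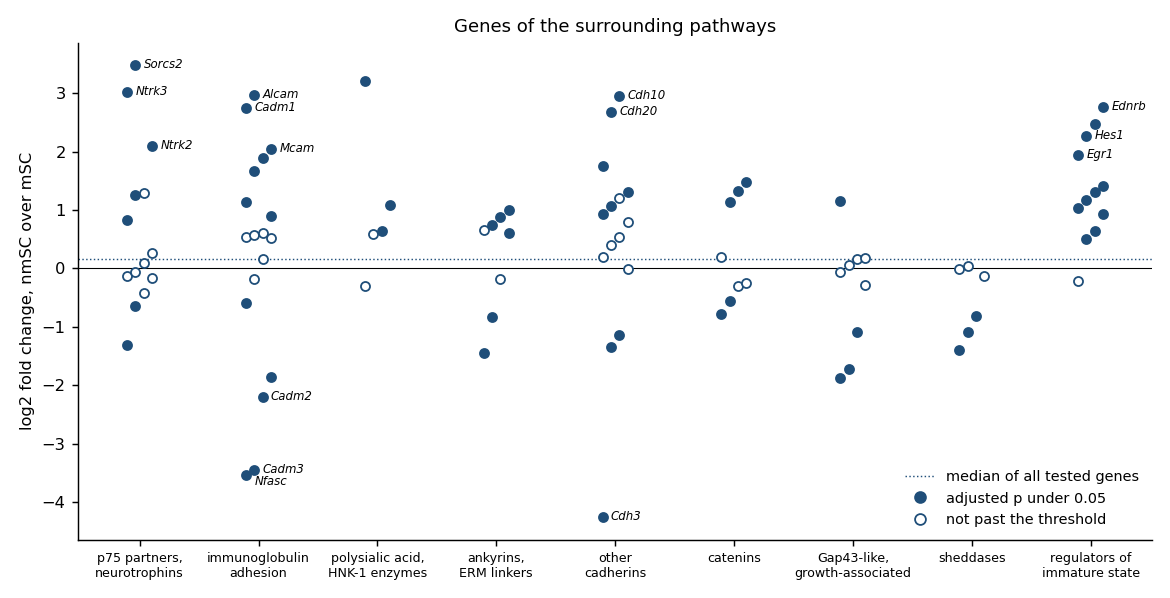
Log2 fold change from mSC to nmSC of the tested genes in 9 lists around the 7 genes, with filled points for an adjusted p under 0.05 and a dotted line at 0.16, the median of all tested genes. Members of a list spread to both sides in most lists, as with Cadm1 and Nfasc, while 11 of 12 regulators of the immature state are filled and above 0.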

How the data were processed

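RNA of eYFP-positive SCs was sequenced in 12 libraries, 4 each from the allSC, mSC and nmSC gates. Reads were trimmed, aligned with STAR (2.6.1c per the labels) and assigned to genes with featureCounts by the authors, who deposited raw counts for 25700 genes. The submitters' processing notes name GRCm38.p5, whereas the paper's methods print a human build, and options for strand, multi-mapping and overlapping genes are not given in the sources used here. GENCODE M21 (GRCm38) matched 25664 identifiers.

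From the deposited counts, TMM factors (0.744 to 0.871 in mSC, 0.986 to 1.03 in allSC, 1.16 to 1.27 in nmSC) and quasi-likelihood tests were computed with edgeR 4.0.16 in R 4.3.3, in 1 model over the 12 libraries after its expression filter by gate (18597 genes), p-values adjusted by Benjamini-Hochberg, and 0.05 as the threshold. Ratios used counts plus 0.5. No 2 libraries of a gate were duplicates (chi-square per degree of freedom from 4.03 to 95.7). The highest values, from 50.6 to 95.7, were those of the mSC library of mouse 4 against the rest of its gate. The other mSC pairs lay between 6.01 and 22.1. The pairing of libraries between gates rests on the subject number in the labels, which is the same for 1 library of each gate. Across genes, the departures of paired mSC and nmSC libraries from their gate means correlated between -0.23 and 0.15. The steps were tested on simulated data.

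The 7 genes and all lists were chosen with earlier results of these data known. Named are the 7 genes, for each the 2 genes with the nearest profile, and from each list up to 3 genes per direction with the largest log2 fold change among those called at a mean of at least 5 CPM, besides the exceptions stated. Alternatives were DESeq2 size factors, the Wald test of DESeq2 1.42.0, library size alone, other filters and pseudocounts, the replicate block, fits of only the gates compared, and leaving out each library. Promoter entries were not matched for Ncam1, Cdh2, Cdh19 and Gap43.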

Additional observations from a re-analysis of the deposited data

Results flagged for a closer look

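Of 21 groups of 4 libraries (7 genes in 3 gates), 2 held a library far from the other 3, where chance gives about 1 in 20. Ncam1 was at 62.3 CPM in the mSC library of mouse 3, against 43.5 to 45.5 CPM in the rest of that gate. Chl1 was at 11.6 CPM in the mSC library of mouse 4, while the others lay between 16.1 and 17.03 CPM. Both values lie far under the lowest nmSC library of the gene, and the calls of Ncam1 and Chl1 from mSC to nmSC held without either library.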

How the results depend on the processing

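From allSC to nmSC the calls of Ncam1 and Chl1, and the direction and call of Ngfr, Ncam1, L1cam, Chl1 and Cdh2 from mSC to nmSC and from mSC to allSC held under every alternative run. Cdh19 from mSC to nmSC lost its call with DESeq2 size factors (log2 fold change 0.32), the DESeq2 Wald test (0.32), no filter (0.35), only the gates compared (0.32) and the replicate block (0.37), and over fits that left out 1 library it ran from 0.24 to 0.47, so that between 5 and 6 genes were called. Gap43 changed sign with the DESeq2 Wald test (-0.019) and when mSC of mouse 1 (-0.25), mSC of mouse 3 (-0.22) or nmSC of mouse 1 (-0.40) was left out, its range being -0.40 to 0.86. With library size alone, Cdh19 kept its call from mSC to nmSC at a larger log2 fold change (0.94). It also passed from mSC to allSC with that scaling (0.61).

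From allSC to nmSC, leaving out 1 library moved the number of genes called between 2 and 5, with 2 called without allSC of mouse 2 or 4 or without nmSC of mouse 2 or 3. Ngfr ranged from 0.48 to 0.70, L1cam from 0.65 to 0.78 and Cdh2 from 0.50 to 0.68, and Cdh19 from -0.070 (without nmSC of mouse 4) to 0.16. Cdh2 passed with library size alone (0.84), the DESeq2 Wald test (0.59) and only the gates compared (0.62). The causes were not tested.

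Among the 7 genes, the replicate block changed no edgeR call other than that of Cdh19, and over all tested genes it moved the calls from mSC to nmSC from 7540 to 7170. With libraries paired by mouse, a sign-flip test called 0 ratios between the 7 genes and 0 ratios to Sox10, a test that 4 pairs cannot pass. With a pseudocount of 0.1, 9 of the 14 nearest genes were kept. Library size alone called 11840 genes from mSC to nmSC (10392 higher, 1448 lower) in place of 7540 (3746 higher, 3794 lower), and moved the median of all tested genes from 0.16 to 0.73. Depth limits Gap43, with 3 to 21 counts per library.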

Other observations

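The mSC library of mouse 4 had the lowest level of its gate for 6 of the 7 genes (Ngfr, Ncam1, L1cam, Chl1, Cdh2 and Cdh19), and the highest for Gap43. The same library had the highest Mki67 of its gate, at 25.8 CPM beside 14.8, 17.3 and 22.0 CPM in mice 1 to 3.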
